A study of Mus musculus with 7 samples.

Results

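The expression of 10 genes of the elastic fibre was described across cell types and states of the mouse aorta: Eln, Fbn1, Fbln2, Fbln5, Mfap4, Mfap5, Emilin1, Lox, Loxl1 and Efemp2. They are 10 of the 31253 genes in the count matrices, taken as a named list of structural and cross-linking components. None of them was used to gate a cell type. The list was chosen with earlier results of these data known, so its counts beside all genes are a description and no independent test. Elastic fibres give the aortic wall its recoil. They have a core of cross-linked elastin, which forms on a scaffold of microfibrils built from fibrillin. Fibulins and microfibril-associated glycoproteins bind both partners during assembly, and lysyl oxidases oxidise lysines of tropoelastin so that the monomers can be cross-linked. In the aorta, elastin of the medial lamellae is laid down mostly by smooth muscle cells in early life, and adventitial fibroblasts produce a microfibril-rich matrix.

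Single cells were captured from the same part of the aorta on the BD Rhapsody system, which counts transcripts by unique molecular identifier (UMI). There were 3 libraries of Slc38a2flox/flox mice (flox controls) and 4 of Slc38a2△EC mice (endothelial knockouts), in which the gene of an amino acid transporter is deleted in endothelial cells. All 7 libraries came from animals on a high-salt diet for 3 weeks, so no library shows the arteries on normal salt. No source used here gives the promoter of the endothelial Cre, the age of the mice or the number of mice per library. Nothing in the labels ties each library to its own animal, so a p-value here reflects how libraries vary, and that variation may be technical. Tissue was dissociated with a mix of enzymes that included elastase and collagenases.

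Of 76359 barcodes, 68662 passed the cell filters (68 to 218 barcode sequences were shared between pairs of libraries, 0 of them with the same counts), and libraries held 22646246 to 73102988 UMIs. Cells were gated on marker genes, which gave 19899 smooth muscle-like, 35534 fibroblast-like, 1278 endothelial-like and 3991 macrophage-like cells. A further 2280 cells passed more than 1 gate and 4388 passed none, and both were left out. The labels name the cell type as goblet cells, but 0 barcodes held 3 or more of the 7 goblet markers searched. Endothelial knockout library 4 stood apart in composition: smooth muscle-like cells made up 4.85% of its cells against 22.6% to 44.3% in the other 6 libraries. Slc38a2 in endothelial-like cells stood at 445, 388 and 313 UMIs per 1000000 UMIs of the class (CPM) in the flox controls and at 202, 280, 327 and 280 in the knockouts, so the genotypes overlapped. No source used here gives the deleted part of the gene, so these counts do not check the labels.

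Levels are UMIs of a gene per 1000000 UMIs of the gated cells of that library (CPM), listed as flox controls 1, 2 and 3 and then knockouts 1, 2, 3 and 4. Levels of different genes are not compared. Fold changes are log2 values from edgeR's quasi-likelihood test on counts summed per library. Their standard error (SE) was derived from that test, as the absolute log2 fold change over the square root of its F statistic. A gene was called at a Benjamini-Hochberg adjusted p under 0.05 over all genes tested. Genes on the opposite strand overlap Eln (Gm30003), Fbn1 (Gm9913), Efemp2 (Mus81) and Mfap4 (Mapk7), and no source used here says whether strand was used in counting, so reads of these partners cannot be told apart. In whole-class sums, a change in the number of expressing cells and a change in transcript number per cell cannot be told apart.

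The first question was which of the 10 genes belong to smooth muscle and which to the adventitial fibroblasts. Fibroblast-like cells held the higher level of 8 of the 10 genes, and smooth muscle-like cells held the higher level of elastin itself and of Emilin1. Each of the 10 genes was called, 8 higher in fibroblast-like cells, where the background was 38.7% of 15498 genes, and 2 lower, where it was 37.9%. With a change of at least 2-fold required, 6 members were higher against a background of 20.6% and 1 was lower against 15%. The median log2 fold change of the members was 1.12, beside 0.01 over all genes tested.

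Eln (chr5:134702593-134747323, minus strand, GRCm38 with GENCODE vM21) encodes tropoelastin, the monomer of the core. In smooth muscle-like cells it stood at 2223, 2788 and 1099 CPM in the flox controls and at 2970.3, 2274, 913 and 1012 CPM in the knockouts. In fibroblast-like cells it stood at 705, 1027 and 334 CPM in the flox controls and at 838, 760.0, 219 and 172 CPM in the knockouts. Every library had more Eln in smooth muscle than in fibroblasts, although the ranges of the classes overlapped. Eln was lower in fibroblast-like cells by 1.96 on the log2 scale (log2 fold change -1.96, SE 0.12, edgeR adjusted p = 7.85e-08).

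Among the microfibril genes, Fbn1 (chr2:125300594-125507993, minus strand), which encodes the fibrillin that forms the backbone of microfibrils, was on the fibroblast side. It stood at 250.1, 230.2 and 183 CPM in flox controls and 194, 215, 201 and 186 CPM in knockouts in smooth muscle-like cells. In fibroblast-like cells it stood at 768, 933 and 507 CPM in flox controls and 1013, 712, 360.1 and 921 CPM in knockouts. The classes did not overlap, and the log2 fold change was 1.64 (SE 0.15, edgeR adjusted p = 2.41e-06). Mfap5, a microfibril-associated glycoprotein, rose from 254 to 400 CPM over the 7 smooth muscle sums to 777 to 1462 CPM over the fibroblast sums (log2 fold change 1.46, SE 0.12, edgeR adjusted p = 9.06e-07). Mfap4, a fibrinogen-domain protein that binds tropoelastin and fibrillin, went from 454 to 716 CPM in smooth muscle to 1092 to 1732 CPM in fibroblasts (log2 fold change 1.17, SE 0.09, edgeR adjusted p = 5.9e-07). Neither gene overlapped between the classes. Emilin1, a glycoprotein at the interface of elastin and microfibrils, went the other way by a small amount. It ranged from 27.1 to 47.7 CPM in smooth muscle and from 21.8 to 48.6 CPM in fibroblasts, ranges that overlapped, and it was lower in fibroblasts in 5 of 7 libraries (log2 fold change -0.40, SE 0.08, edgeR adjusted p = 0.00068).

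The fibulins split in size. Fbln2 (chr6:91212455-91272540, plus strand), which encodes fibulin-2, stood at 50.5, 19.3 and 21.1 CPM in flox controls and 19.8, 22.5, 15.4 and 81.3 CPM in knockouts in smooth muscle-like cells. In fibroblast-like cells it stood at 594, 813 and 799 CPM in flox controls and 879, 943, 815 and 1341 CPM in knockouts. Its log2 fold change of 4.87 was the largest of the 10 members (SE 0.27, edgeR adjusted p = 3.7e-08). The smooth muscle values lay close to those of macrophage-like cells, which are not known for making fibulin-2 and held 43.3, 7.53 and 10.2 CPM in flox controls and 9.36, 5.59, 8.01 and 35.4 CPM in knockouts. Flox control 1 and knockout 4 had the highest Fbln2 in both of these classes. The Fbln2 level of smooth muscle-like cells was 1.89% to 8.5% of the fibroblast level of the same library, and the summed fibroblast gate markers in smooth muscle-like cells were 1.86% to 6.55% of their fibroblast level. After thinning each cell to 1000 UMIs, a median of 1.67% of smooth muscle-like cells held an Fbln2 UMI (7.22% before thinning), beside 0.904% of macrophage-like cells (3.85% before) and 43.9% of fibroblast-like cells (76.7% before). Thinning left out 1514 smooth muscle-like, 286 macrophage-like and 2362 fibroblast-like cells with fewer UMIs, and the median depths before it were 4293, 4464 and 5579 UMIs. Smooth muscle-like cells were above macrophage-like cells in 7 of 7 libraries, by 1.17 to 4.03 times, with ranges that overlapped. How much of the smooth muscle signal is free RNA was not tested, and the log2 fold change depends on it.

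Fbln5, whose protein tethers elastin to cells and to lysyl oxidases, and Efemp2, which encodes fibulin-4 and is needed for lysyl oxidase to reach elastin, differed far less. Fbln5 ranged from 459 to 717 CPM in smooth muscle and from 723 to 1260 CPM in fibroblasts, with no overlap (log2 fold change 0.62, SE 0.08, edgeR adjusted p = 3.29e-05). Efemp2 ranged from 37.2 to 46.7 CPM in smooth muscle and from 54.8 to 76.1 CPM in fibroblasts, again with no overlap (log2 fold change 0.50, SE 0.06, edgeR adjusted p = 1.84e-05). Both also fell in the Pi16 and Dpp4 fibroblast state and rose in the Fmod and Hhip state, described below, so the 250 bases before a RefSeq start of each are shown, from the RefSeq promoter table for GRCm38.p6, as windows that lie outside every exon of the GENCODE vM21 annotation. Capitals mark matches of CAGAC (the core of a SMAD-binding element) and of GGGCGG (a GC box) on either strand.
Fbln5, chr12:101819120-101819369, minus strand: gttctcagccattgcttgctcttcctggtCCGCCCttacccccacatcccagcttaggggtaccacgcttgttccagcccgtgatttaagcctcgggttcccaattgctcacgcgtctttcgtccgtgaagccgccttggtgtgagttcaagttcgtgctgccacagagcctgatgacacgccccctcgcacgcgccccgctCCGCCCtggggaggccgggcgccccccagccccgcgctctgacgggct
Efemp2, chr19:5473696-5473945, plus strand: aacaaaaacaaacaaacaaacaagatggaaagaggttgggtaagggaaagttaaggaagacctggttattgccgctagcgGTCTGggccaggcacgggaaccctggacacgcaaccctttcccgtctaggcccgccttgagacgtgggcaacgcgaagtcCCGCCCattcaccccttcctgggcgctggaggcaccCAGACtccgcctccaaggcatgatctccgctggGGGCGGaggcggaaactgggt
The Fbln5 window held 2 GC-box matches, which began 221 and 48 bases before the start, and 0 CAGAC matches. The Efemp2 window held 2 GC-box matches, at 90 and 21 bases, and 2 CAGAC matches, at 170 and 54 bases, and no match overlapped another. A GC-box match is present in 32.7% and a CAGAC match in 42.2% of the 32851 windows of this length in the table, so these letters are common, and a match is not a binding site. Neither window matched a CArG box, which 1.47% of all windows hold. Other RefSeq starts of these genes gave windows that reach into exons and are not shown: 1 for Fbln5, with 2 CAGAC and 0 GC-box matches, and 2 for Efemp2, with 5 GC-box and 0 CAGAC matches each. The matches thus depend on the start chosen. The table had windows for 5 of the 10 members.

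The lysyl oxidases were both higher in fibroblast-like cells. Lox, the main cross-linking enzyme of the artery, stood at 222, 202 and 128 CPM in flox controls and 185, 173, 103 and 74.5 CPM in knockouts in smooth muscle-like cells. In fibroblast-like cells it stood at 493, 618 and 435 CPM in flox controls and 424, 540, 489 and 304 CPM in knockouts. The classes did not overlap (log2 fold change 1.53, SE 0.14, edgeR adjusted p = 1.73e-06). Loxl1, which acts on elastin in renewal of fibres, ranged from 152 to 176 CPM in smooth muscle, which at 1.16 times from lowest to highest was the narrowest range of the 10 members in that class, and from 288 to 553 CPM in fibroblasts (log2 fold change 1.07, SE 0.07, edgeR adjusted p = 1.56e-07).

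**Figure D1:**
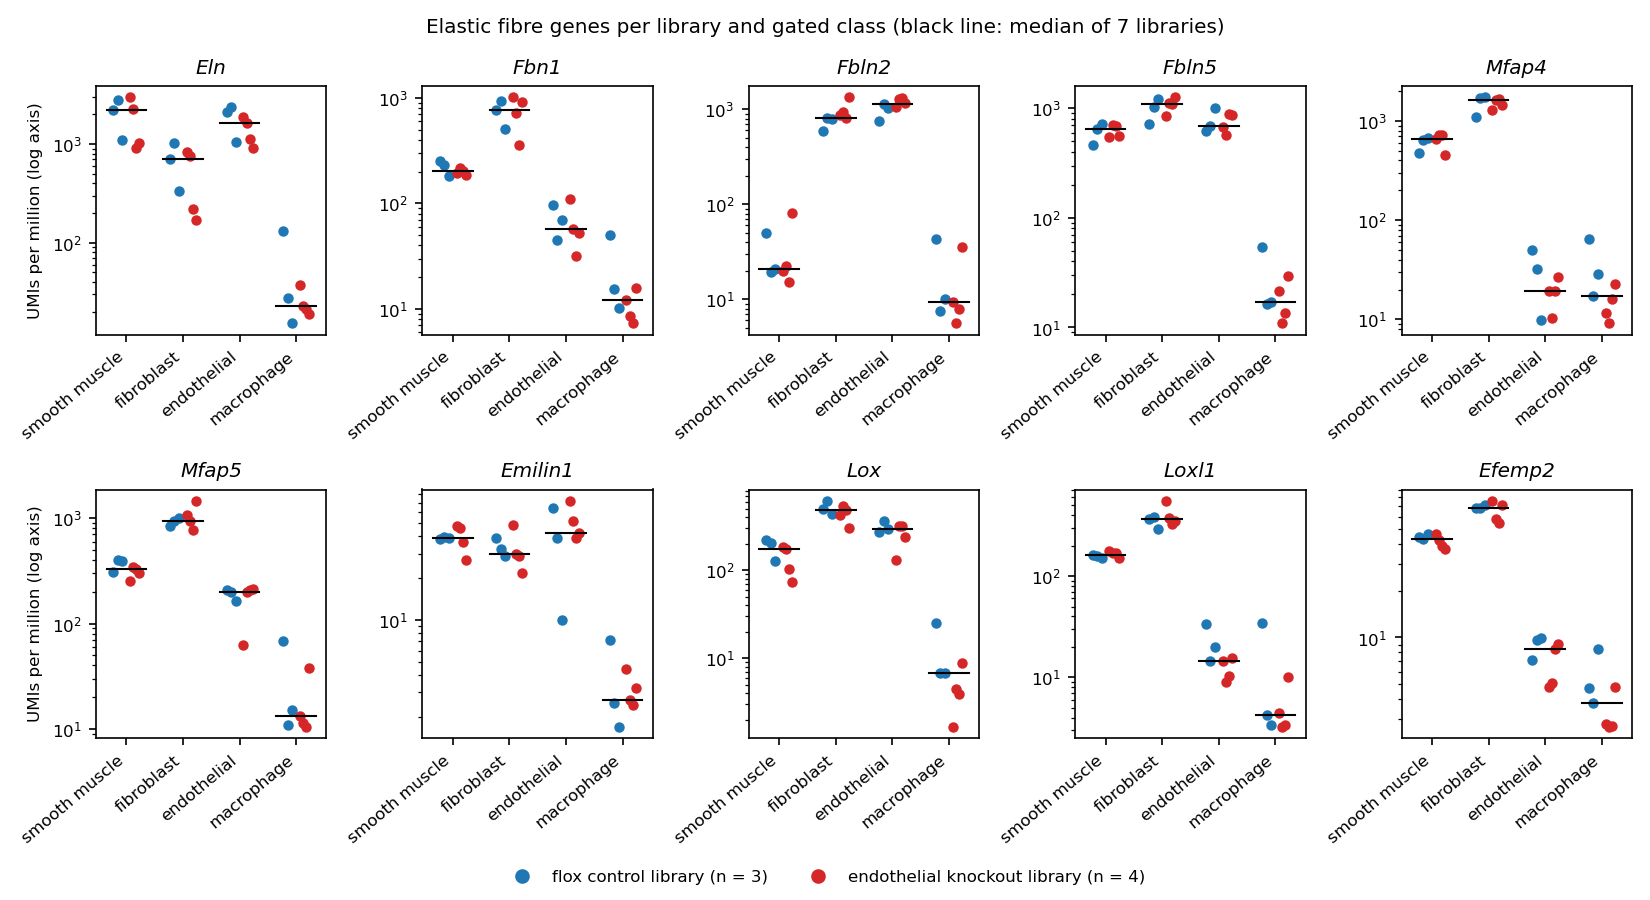
Level of each elastic fibre gene in CPM (log axis) in 4 gated classes. Each point is 1 library, blue for the 3 flox controls and red for the 4 endothelial knockouts, and black lines are medians of 7 libraries. Eln is highest in smooth muscle and endothelium, Fbln2 in fibroblasts and endothelium, and Fbn1, Mfap4, Mfap5, Loxl1 and Efemp2 in fibroblasts.

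Endothelial-like cells carried a part of the list. Eln stood there at 2112, 2377 and 1049 CPM in flox controls and 1892, 1632, 1114 and 907 CPM in knockouts, which was above the fibroblast level in 7 of 7 libraries (2.15 to 5.28 times) and above the smooth muscle level in 1 of 7. Fbln2 stood at 752, 1128 and 1039 CPM in flox controls and 1051, 1281, 1331 and 1157 CPM in knockouts, above the fibroblast level in 6 of 7 libraries and 14.2 to 86.3 times the smooth muscle level. Fbln5 (576 to 999 CPM) and Lox (129.6 to 362 CPM) were each above the smooth muscle level in 6 of 7 libraries and below the fibroblast level in 7 of 7. Emilin1 ranged from 9.94 to 72.0 CPM, and Fbn1 (31.6 to 110.4 CPM), Mfap5 (62.4 to 213 CPM) and Efemp2 (4.80 to 9.94 CPM) were below both other classes in 7 of 7 libraries. Mfap4 ranged from 9.94 to 50.0 CPM beside 9.12 to 64.5 CPM in macrophage-like cells, and Loxl1 from 8.95 to 33.3 CPM beside 3.24 to 34.6 CPM. Within libraries, the endothelial level was above the macrophage level in 5 of 7 for Mfap4 (0.345 to 1.86 times) and in 6 of 7 for Loxl1 (0.963 to 5.87 times). Endothelial sums held 201149 to 1751731 UMIs, and these class differences were not tested. Smooth muscle gate markers in endothelial-like cells were 1.41% to 4.21% of their smooth muscle level and fibroblast gate markers 1.57% to 6.13% of their fibroblast level. Endothelial Eln was 63.7% to 122% of its smooth muscle level. How much of the endothelial Eln signal is free RNA or comes from doublets was not tested.

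Fibroblast-like cells were divided by markers into 4 states, and 15612 of the 35534 cells fitted none. Each state was set against the mean of the other 3 in a single fit, so the 4 contrasts share their samples and are not independent. Each state is also part of the reference of the other 3, so a gene high in 1 state is shifted down in the other contrasts. Opposite signs between states are thus in part built in. The members fell on opposite sides in the states marked by Pi16 and Dpp4 and by Fmod and Hhip. In the first, 4 of 10 members rose, where 22.3% of 12503 genes did, and 6 fell, where 24.8% did. In the second, 6 rose (background 22.8%) and 4 fell (background 24.2%). With a change of at least 2-fold required, 2 rose in the first (Fbn1 and Mfap5, background 3.76%) and 2 fell (Mfap4 and Lox, background 5.97%), and in the second 1 rose (Mfap4, background 3.04%) and 2 fell (Fbn1 and Fbln2, background 4.05%). Pi16 and Dpp4 mark adventitial cells often described as fibroblast progenitors.

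In the Pi16 and Dpp4 state the microfibril gene Fbn1 was much higher. It stood at 3033, 2853 and 2299 CPM in flox controls and 3621, 2714, 1757 and 2333 CPM in knockouts, whereas in the Fmod and Hhip state it stood at 413, 394 and 218 CPM in flox controls and 387, 289, 167 and 162 CPM in knockouts. The 7 values of one state lay above all 7 of the other. Its log2 fold change was 2.37 (SE 0.10, edgeR adjusted p = 1.86e-17) in the Pi16 and Dpp4 state and -1.85 (SE 0.12, edgeR adjusted p = 6.27e-13) in the Fmod and Hhip state. Mfap5 followed it, with 1857 to 2603 CPM in the Pi16 and Dpp4 state and 613 to 895 CPM in the Fmod and Hhip state (log2 fold changes 1.28, SE 0.05, and -0.76, SE 0.05). Fbln2 and Loxl1 were also higher in the Pi16 and Dpp4 state (log2 fold changes 0.79, SE 0.06, and 0.55, SE 0.06) and lower in the Fmod and Hhip state (-1.51, SE 0.07, and -0.20, SE 0.06). Loxl1 ranged from 262 to 565 CPM in the Fmod and Hhip state. It ranged from 228 to 457 CPM in the state marked by Il6, Lif, Cxcl1 and Ptgs2. Its negative value in the Fmod and Hhip contrast is relative to a mean that includes the Pi16 and Dpp4 state (509 to 703 CPM).

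Mfap4 showed the opposite order. It stood at 369, 770.5 and 724 CPM in flox controls and 319, 526, 405 and 382 CPM in knockouts in the Pi16 and Dpp4 state, and at 1463, 2271 and 2278 CPM in flox controls and 1891, 2271, 2485 and 2353 CPM in knockouts in the Fmod and Hhip state. These states did not overlap (log2 fold changes -1.95, SE 0.11, and 1.03, SE 0.09, edgeR adjusted p = 5.46e-15 and 1.34e-10). The cross-linker Lox was at 196 to 339 CPM in the Pi16 and Dpp4 state and 336 to 750.0 CPM in the Fmod and Hhip state (log2 fold changes -1.20, SE 0.06, and 0.41, SE 0.06). Eln, Emilin1, Fbln5 and Efemp2 were likewise lower in the first state and higher in the second: by log2 fold changes of -0.70 and 0.36 for Eln, -0.95 and 0.58 for Emilin1, -0.64 and 0.82 for Fbln5, and -0.31 and 0.42 for Efemp2. Eln in the Fmod and Hhip state was called at an adjusted p of 0.0138 and missed the threshold without knockout 2 (adjusted p = 0.0627, edgeR), and its 7 values there ranged from 115 to 1194 CPM.

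In the state marked by Cilp, Myoc and Angptl1, 6 members rose (background 8.53%) and 0 fell (background 9.44%; 7 members had an unadjusted p under 0.05 in either direction, and DESeq2 called 6). Fbln2 stood there at 1128, 1457 and 1434 CPM in flox controls and 1648, 1788, 1599.5 and 2036 CPM in knockouts, which overlapped its range in the Pi16 and Dpp4 state (1229 to 1613 CPM) and lay above that in the Fmod and Hhip state (335 to 569 CPM) (log2 fold change 0.89, SE 0.06, edgeR adjusted p = 1.22e-11). Mfap4, Eln and Lox rose with log2 fold changes of 0.93 (SE 0.09), 0.77 (SE 0.12) and 0.70 (SE 0.06). Fbln5 and Emilin1 rose little (0.21, SE 0.05, and 0.22, SE 0.07). Both lost their call when each cell was given to its best class and state (edgeR adjusted p = 0.782 and 0.0763). Emilin1 also lost it without the filter on low genes (edgeR adjusted p = 0.0561). It lost it whichever knockout library was left out (edgeR adjusted p = 0.058 to 0.174). Fbn1, Mfap5, Loxl1 and Efemp2 did not pass the test (log2 fold changes -0.20 to -0.01). No member rose or fell by at least 2-fold (backgrounds 1.39% and 0.4%).

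The state marked by Il6, Lif, Cxcl1 and Ptgs2, genes of an inflammatory or stress response, held less of 6 of the 10 members. Here 0 members rose (background 28.5%; 7 had an unadjusted p under 0.05 in either direction, and DESeq2 called 6) and 6 fell (background 22.4%). Mfap5 fell by 0.50 (SE 0.05), Eln by 0.43 (SE 0.13), Fbln5 by 0.38 (SE 0.06), Fbn1 by 0.31 (SE 0.11), Loxl1 by 0.21 (SE 0.06) and Fbln2 by 0.17 (SE 0.06) on the log2 scale. None of the 10 rose or fell by at least 2-fold (backgrounds 3.48% and 2.11%). The last 3 named were small, and the calls of Fbn1 and Fbln2 were lost when single libraries were left out. Emilin1, Lox, Efemp2 and Mfap4 did not pass the test (log2 fold changes -0.10 to 0.15). These cells were the deepest of the 4 states, with a median of 7169 UMIs against 5520.5 to 6249 in the others, and the part of depth was not tested.

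**Figure D2:**
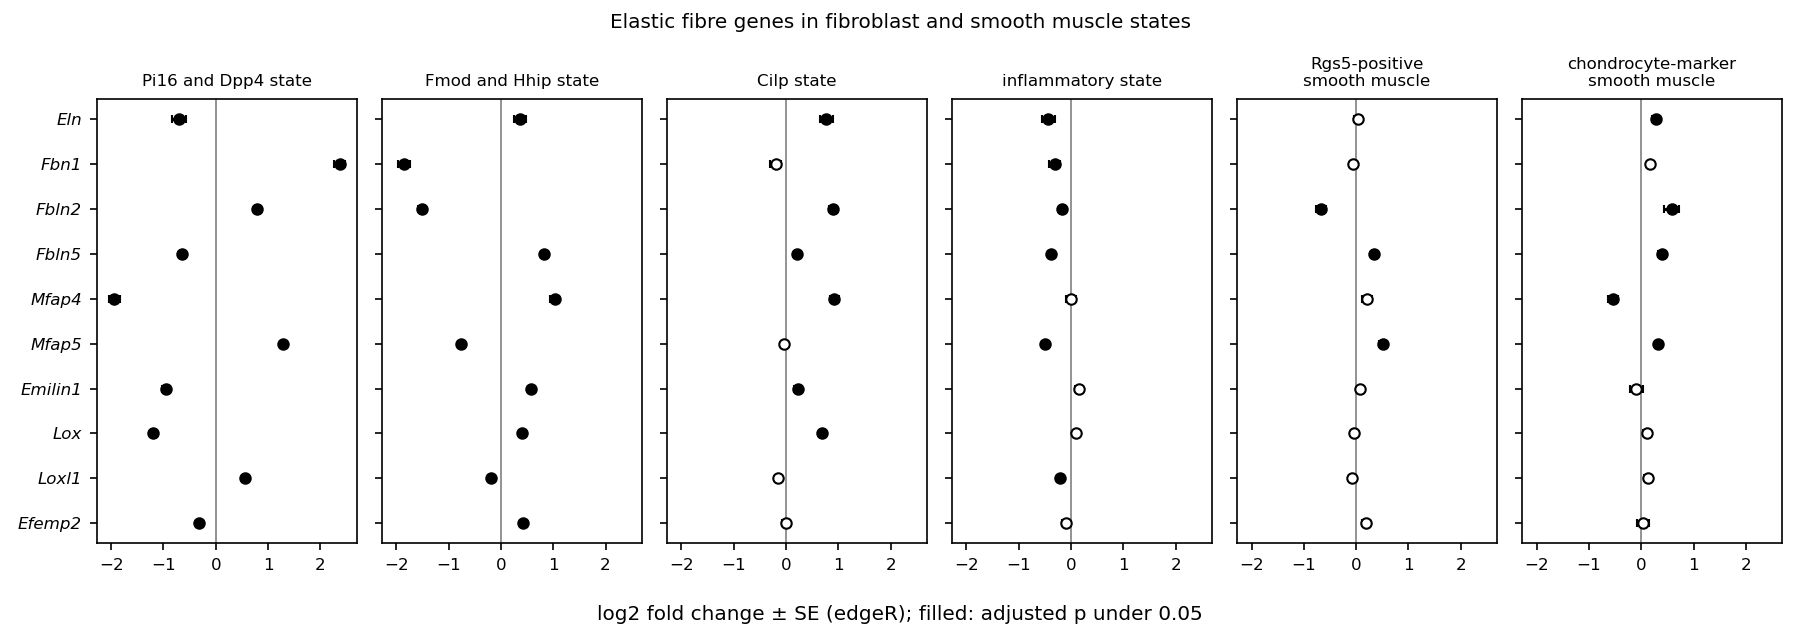
Log2 fold change with its SE (horizontal axis) of each elastic fibre gene in 4 fibroblast states, each against the mean of the other 3, and in 2 smooth muscle states. Filled points passed an adjusted p of 0.05 and open points did not. Fbn1 lies at 2.37 in the Pi16 and Dpp4 state and at -1.85 in the Fmod and Hhip state, and Mfap4 at -1.95 and 1.03.

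Smooth muscle-like cells were divided by Rgs5, which encodes a regulator of G-protein signalling, into 12056 positive and 6056 negative cells. The 1787 cells with 1 Rgs5 UMI were left out. Of the 10 members, 2 were higher in Rgs5-positive cells, against a background of 3.2% of 12163 genes, and 1 was lower, against 5.27%. At a change of at least 2-fold, 0 were higher (background 0.789%) and 0 lower (background 0.682%). Mfap5 stood at 297, 457 and 454 CPM in flox controls and 265, 387, 353 and 564 CPM in knockouts in Rgs5-positive cells, and at 314, 292 and 299.8 CPM in flox controls and 174, 285, 269 and 244 CPM in knockouts in Rgs5-negative cells. It was higher in the positive cells of 6 of 7 libraries (log2 fold change 0.51, SE 0.08, edgeR adjusted p = 0.000215). Fbln5 was higher too (log2 fold change 0.33, SE 0.04, edgeR adjusted p = 2.78e-05), in 7 of 7 libraries. Fbln2 was lower (log2 fold change -0.68, SE 0.10, edgeR adjusted p = 0.000109), at the low levels described above. Its call was lost when each cell was given to its best class and 1 Rgs5 UMI was enough for a positive cell (edgeR adjusted p = 0.0658). Eln did not differ beyond the spread (log2 fold change 0.03, SE 0.08, adjusted p = 0.901). Rgs5-positive cells were deeper, with a median of 4621.5 UMIs against 3587.5, the gate itself needs at least 2 Rgs5 UMIs, and the part of depth was not tested.

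The 717 smooth muscle-like cells with at least 2 of the chondrocyte markers Sox9, Acan, Comp, Chad, Col2a1, Ibsp and Chst11 were set against the other 19182. Here 4 members were higher, against a background of 4.36% of 10376 genes, and 1 was lower, against 2.86%. At a change of at least 2-fold, 0 were higher (background 1.11%) and 0 lower (background 0.299%). Eln stood at 2331, 3526 and 2135 CPM in flox controls and 3345, 2452, 1038 and 1454 CPM in knockouts in these cells (log2 fold change 0.28, SE 0.07, edgeR adjusted p = 0.00607). Fbln5 and Mfap5 were higher by 0.39 (SE 0.08) and 0.33 (SE 0.07), Fbln2 by 0.58 (SE 0.15), and Mfap4 was lower with a log2 fold change of -0.54 (SE 0.09). Fbln2 was again at low levels, with 13.0 to 108 CPM and 184 UMIs in these cells. Its call was lost without flox control 2 or without knockout 2 (edgeR adjusted p = 0.0586 and 0.0638). DESeq2 called neither Fbln2 nor Mfap4 (DESeq2 adjusted p = 0.0534 and 0.0585). When cells needed at least 1000 UMIs and at most 10% mitochondrial counts, 0 of the 5 were called, with log2 fold changes of 0.26 (SE 0.10) for Eln, 0.51 (SE 0.13) for Fbln5, 0.38 (SE 0.13) for Mfap5, 0.63 (SE 0.33) for Fbln2 and -0.23 (SE 0.15) for Mfap4. That filter left smooth muscle-like cells at 0.388% to 11.8% of kept cells, against 4.85% to 44.3% before it. Only libraries with at least 20 cells in both groups entered, so this contrast rested on fewer cells. Members called numbered 2 under the stricter gate and 3 by DESeq2. The cells were deeper, with a median of 6601 UMIs against 4223, and smooth muscle-like cells had a median mitochondrial share of 14.9% against 4.55% in fibroblast-like cells.

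Other genes of the same biology were followed as 2 lists, also chosen with earlier results of these data known. Of 22 tested among 23 other elastic fibre and microfibril genes, 17 were higher in fibroblast-like than smooth muscle-like cells, 2 were lower and 3 did not pass. Among the 4 with the smallest p-values were Bmp1, a procollagen and pro-lysyl oxidase protease (log2 fold change 2.44, SE 0.08), Efemp1 (4.67, SE 0.19) and Mfap2 (2.53, SE 0.11). Of 14 elastin-degrading enzymes and inhibitors, 10 were higher and 2 lower, led by Ctsl, Timp2, Ctsk and Cst3, with log2 fold changes of 2.62, 2.33, 4.44 and 1.84. Of all genes tested, 38.7% were higher and 37.9% lower. The median log2 fold changes of the lists were 1.15 and 1.73, beside 0.01 over all genes.

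In the Pi16 and Dpp4 state, 9 of 22 tested genes of the first list rose and 9 fell, beside 22.3% and 24.8% of all genes. Vcan (1.40, SE 0.07), Emilin2 (1.87, SE 0.10) and Adamtsl4 (1.22, SE 0.07) rose on the log2 scale and Fbln7 fell (-3.39, SE 0.17). Of the 12 tested enzymes and inhibitors, 2 rose and 8 fell, with Cst3 (-1.98, SE 0.08), Mmp3 (-1.95, SE 0.13) and Ctsl (-0.74, SE 0.04) among those that fell. In the Fmod and Hhip state, 9 genes of the first list rose and 10 fell, with Fn1 at -3.64 (SE 0.23), and 7 of the 12 enzymes and inhibitors rose and 3 fell, beside 22.8% and 24.2% of all genes. The inflammatory state had 7 of 22 genes of the first list higher, 5 lower and 10 that did not pass. It had 8 of 12 enzymes and inhibitors higher and 1 lower. Of all genes, 28.5% were higher and 22.4% lower. Mmp3 was at 1.19 (SE 0.11), Cst3 at 0.62 (SE 0.07) and Timp1 at 0.90 (SE 0.13). The Cilp state had 8 of 22 genes of the first list higher and 3 lower. It had 1 of the 12 enzymes and inhibitors higher and 4 lower, beside 8.53% and 9.44% of all genes. In smooth muscle, Rgs5-positive cells had 8 of 20 genes of the first list higher and 2 lower, beside 3.2% and 5.27% of all genes, among them Vcan (0.94, SE 0.07), Fn1 (0.96, SE 0.08) and Fbln7 (1.66, SE 0.18).

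Eln differed widely between libraries. In fibroblast-like cells the highest library (flox control 2, 1027 CPM) held 5.98 times the Eln of the lowest (knockout 4, 172 CPM). The factor was 3.25 in smooth muscle-like and 2.62 in endothelial-like cells, and 10.4 in the Fmod and Hhip state. The 3 lowest libraries were flox control 3, knockout 3 and knockout 4 in each of these classes and in all 7 states tested, so both genotypes were among the low and the high libraries. Lox in smooth muscle-like cells had its lowest values in the same 3 libraries (128, 103 and 74.5 CPM), as it did in the 3 smooth muscle states. So did Emilin1 and Loxl1 in fibroblast-like cells, Loxl1 in the Fmod and Hhip, Cilp and inflammatory states, Fbn1 in the Fmod and Hhip, Cilp and Pi16 and Dpp4 states, and Emilin1 in the chondrocyte-marker state. Lox in fibroblast-like cells did not, and Loxl1 in smooth muscle-like cells spanned a factor of 1.16. Fbn1 spanned a factor of 2.81 in fibroblast-like and 1.36 in smooth muscle-like cells. Median UMIs per kept cell were 3704, 4693.5 and 3092 in flox controls and 5265, 5496, 5379 and 3603 in knockouts, and median mitochondrial shares were 4.21%, 4.71% and 7.51% and 6.19%, 5.69%, 7.07% and 6.09%. The part of depth, mitochondrial share or library preparation in the Eln differences was not tested.

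**Figure D3:**
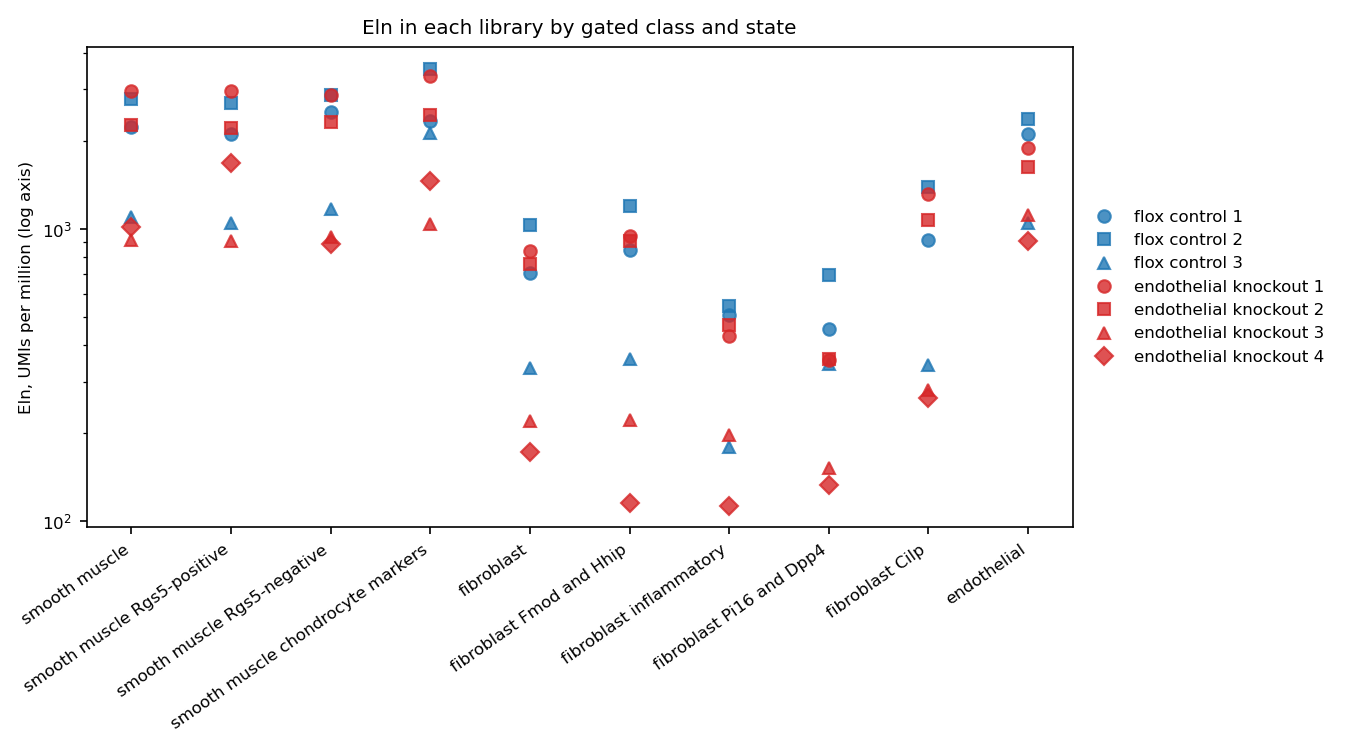
Level of Eln in CPM (log axis) in each of the 7 libraries, by gated class and state, with blue symbols for flox controls and red for endothelial knockouts. Flox control 3, knockout 3 and knockout 4 are the 3 lowest points in every column.

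The comparison the study was built on, knockout against flox control, gave no call among the members. In smooth muscle-like cells, 0 of 10 members were called, where 0% of 12899 genes were (0 members with an unadjusted p under 0.05, and 0 by DESeq2). In fibroblast-like cells, 0 of 10 were called, where 0% of 15350 genes were (again 0 at an unadjusted p under 0.05 and 0 by DESeq2). In endothelial-like cells, 8 members had enough counts for the test (Loxl1 and Efemp2 did not), and 0 were called, where 0% of 7618 genes were (0 at an unadjusted p under 0.05 and 0 by DESeq2). Over all genes, 661, 706 and 439 had an unadjusted p under 0.05 in these classes, and DESeq2 called 10, 5 and 0.

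Eln had a log2 fold change of -0.08 (SE 0.43) in smooth muscle-like, -0.44 (SE 0.54) in fibroblast-like and -0.38 (SE 0.29) in endothelial-like cells. Its mean was 2037 ± 859.7 CPM (SD, n = 3) in flox controls and 1793 ± 1000.02 CPM (SD, n = 4) in knockouts in smooth muscle-like cells, so a change of that size would not have been detectable. The members with tight values gave narrower limits: Loxl1 in smooth muscle-like cells was 157 ± 4.71 CPM (SD, n = 3) and 166 ± 10.3 CPM (SD, n = 4), with a log2 fold change of 0.17 (SE 0.10). Over the 10 members, log2 fold changes ran from -0.34 to 0.17 in smooth muscle-like cells, from -0.44 to 0.45 in fibroblast-like cells and from -0.65 to 0.36 in endothelial-like cells.

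Fbln2 was the member whose genotypes came apart in fibroblast-like cells. The flox controls stood at 594, 813 and 799 CPM and the knockouts at 879, 943, 815 and 1341 CPM, so the groups did not overlap, by a margin of 813 against 815 CPM (log2 fold change 0.45, SE 0.22, edgeR adjusted p = 0.961). Groups without overlap were found for 4.78% of the genes tested in that class, and 1 of the 10 members was among them. In smooth muscle-like and endothelial-like cells 0 members were without overlap, beside 5.45% and 7.21% of the genes tested. Fbln2 in endothelial-like cells, for one, was 752 to 1128 CPM against 1051 to 1331 CPM.

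Within the 7 states 0 members were called by edgeR or DESeq2, with adjusted p of at least 0.722, where 0.0168% of 11881 genes were called in Rgs5-positive cells and 0% of genes in the other 6 states. Members without overlap between genotypes numbered 1 of 10 each in the Rgs5-negative smooth muscle state (background 4.86%) and in the Pi16 and Dpp4 (5.97%) and Cilp (6.84%) fibroblast states, and 0 in the other 4 states (5.3% in Rgs5-positive and 5.71% in chondrocyte-marker smooth muscle, 4.48% in Fmod and Hhip and 5.8% in inflammatory fibroblasts). In the Pi16 and Dpp4 state, 3 members had an unadjusted p under 0.05 (589 of 11420 genes tested did), Eln, Lox and Mfap4, with log2 fold changes of -0.97 (SE 0.34), -0.40 (SE 0.15) and -0.58 (SE 0.26). Eln there stood at 455, 694 and 345 CPM in flox controls and 355, 359.7, 152 and 133 CPM in knockouts, which overlapped (edgeR adjusted p = 0.898). In the Cilp state 1 member had such a p (Fbln2, log2 fold change 0.42, SE 0.18), as did 762 of 11178 genes. In the chondrocyte-marker state 1 did (Lox, log2 fold change -0.54, SE 0.24), as did 281 of 7095 genes, and in the other 4 states 0 did. An interaction term then compared the genotype effect of fibroblast-like with that of smooth muscle-like cells, and 0 of 10 members were called, where 0% of 15498 genes were (1 at an unadjusted p under 0.05, Eln, with a difference of -0.46, SE 0.20, beside 560 of all genes, and 0 by DESeq2).

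**Figure D4:**
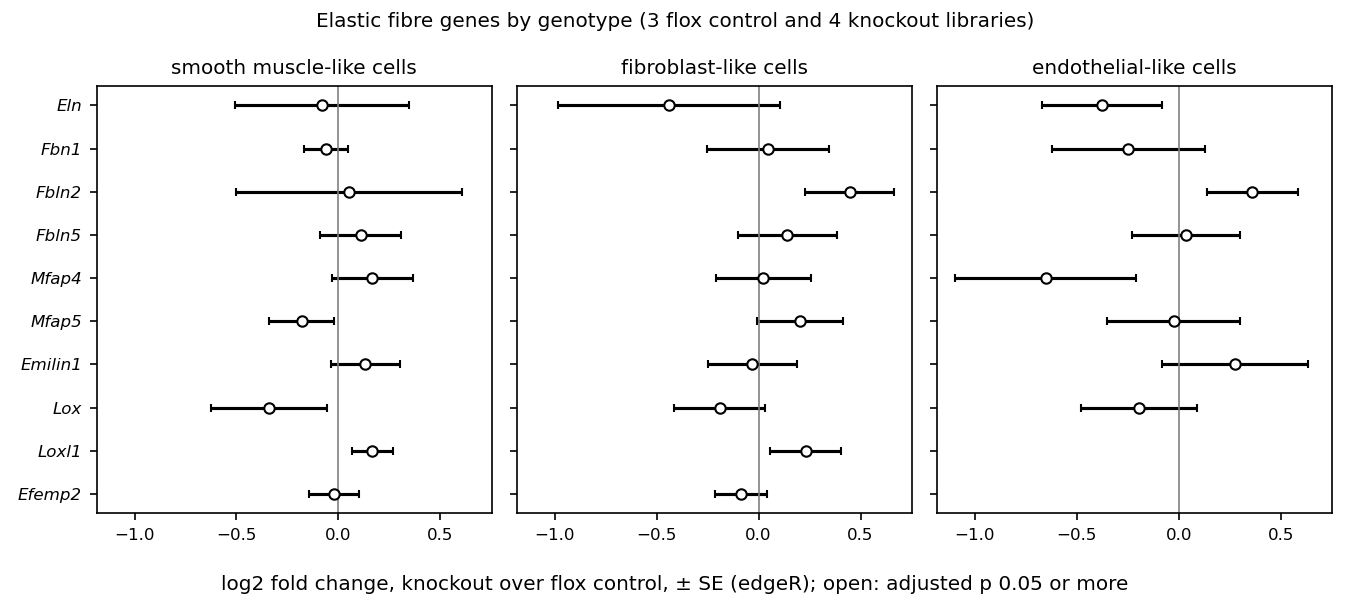
Log2 fold change of knockout over flox control with its SE (horizontal axis) for each elastic fibre gene in 3 gated classes, from 3 flox control and 4 knockout libraries. All points are open, which marks an adjusted p of 0.05 or more, and the bars of Eln are wider than those of Loxl1 in smooth muscle-like cells.

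For 9 shares of classes and states, an exact two-sided permutation test (35 assignments of the genotype labels) gave an adjusted p of 0.886 for each. The smallest p this test can give is 0.0286, or 0.257 after adjustment for a single share that stood apart, so the test could not have passed for 1 share alone. Pi16 and Dpp4 cells were 5.52%, 11.1% and 9.74% of the fibroblast-like cells in flox controls and 8.75%, 9.6%, 5.99% and 23.5% in knockouts. Fbn1 and Mfap5 are high and Mfap4 is low in this state, and the part of the state's share in the whole-class values of knockout 4 was not tested.

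Genes that resembled each member were named by the correlation of log2(CPM + 1) over 110 sums of a library with a class or state, among 6629 genes and apart from gate markers and the members. The sums share libraries, and states are subsets of classes, so the correlation describes cell types more than libraries. Fbln5 was most like Bgn, which encodes the proteoglycan biglycan (r = 0.94), and Timp3 (r = 0.93). Loxl1 was most like Prelp (0.93) and Ogn (0.93), and Mfap4 like Ogn (0.93) and Plekhh2 (0.92). Lox was most like Prickle2 (0.93) and Sparc (0.92), Efemp2 like Gpx8 (0.93) and Il11ra1 (0.91), and Fbln2 like Slc43a3 (0.92) and Fndc1 (0.92). Eln was most like Hoxb2 (0.90) and Synm (0.90), Fbn1 like Tnxb (0.91) and Dbn1 (0.90), Mfap5 like Fstl1 (0.92) and Plpp3 (0.91), and Emilin1 like Htra1 (0.91). Between the members, Fbn1 and Loxl1 were the closest pair (r = 0.92) and Eln and Fbln2 the farthest (r = 0.33).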

How the data were processed

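The authors deposited UMI counts per gene and cell for 7 libraries; the submitters' processing notes name CASAVA 1.8, STARsolo 2.7.10a, Seurat and mm10, with no role for each. Cells with at least 200 genes and at most 25% mitochondrial counts were kept and gated on summed marker counts, and cells in more than 1 gate were left out, with no doublet caller run. Counts were summed per library and class or state with at least 20 cells and tested with edgeR 4.0.16 (quasi-likelihood, TMM factors, filterByExpr, library as a block between classes or states of the same libraries), adjusted over all genes tested. DESeq2 1.42.0, library totals, no filter on low genes, a stricter cell filter, other gates and leaving out libraries were alternatives. The test was run on simulated counts with the same spread for every gene. That spread was narrower than that of Eln here, so this check does not cover genes that vary as widely between libraries. Members called in a comparison are named, and members without a call are not all named. The further lists are described for the contrasts between classes, fibroblast states and Rgs5 states, with up to 4 genes of the smallest p per list. They are not described for the chondrocyte-marker and genotype contrasts. The members and lists were chosen with earlier results of these data known. Replicate numbers were not used to pair the libraries in the main tests.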

Additional observations from a re-analysis of the deposited data

Results flagged for a closer look

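Of 109 groups of 4 knockout values tested, 7 had a library far from the other 3 by Dixon's test, and chance gives about 1 in 20. Fbln2 of knockout 4 was high at 81.3 CPM in smooth muscle-like cells, 61.2 CPM in Rgs5-positive and 86.5 CPM in Rgs5-negative cells. The first sum contains the cells of both Rgs5 sums, which share no cells with each other. This library had the fewest smooth muscle-like cells. Emilin1 of knockout 1 was high at 60.4 CPM in the Fmod and Hhip state and 27.8 CPM in the Pi16 and Dpp4 state. Mfap5 was low at 62.4 CPM in endothelial-like cells of knockout 1, which had 53 such cells, and at 999.9 CPM in the Cilp state of knockout 3. The causes were not tested.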

How the results depend on the processing

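All 10 members were called between fibroblast-like and smooth muscle-like cells under every alternative run. For genotype, 0 members were called under any alternative except Eln in the Pi16 and Dpp4 state without the filter on low genes (1 member, log2 fold change -0.95, adjusted p = 0.0394, edgeR). The sign of the Eln genotype effect, which passed no test there, turned in smooth muscle-like cells with the replicate block (0.0388) and between -0.43 and 0.22 with libraries left out, in Rgs5-positive cells with library totals (-0.0088), with the stricter cell filter (-0.34) and between -0.21 and 0.38 with libraries left out, in Rgs5-negative cells (-0.55 to 0.0186) and in the Cilp state (-0.64 to 0.23). Eln between Rgs5 states turned under the stricter gate (-0.00543) and with libraries left out (-0.0677 to 0.0599). The fibroblast share difference became -2.08 percentage points under the stricter cell filter. Chondrocyte-marker calls of members fell to 3 with DESeq2, 0 with the stricter cell filter and 2 with the stricter gate. With that cell filter, calls of all genes fell to 74 for chondrocyte markers and 294 for Rgs5. The filter left smooth muscle-like cells at 0.388% to 11.8% of kept cells, so both contrasts rested on fewer cells.

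Genotype calls over all genes with DESeq2 were 10 in smooth muscle-like and 5 in fibroblast-like cells, 1 for their difference, and in the states 6 (Rgs5-positive), 2 (Rgs5-negative), 6 (Fmod and Hhip), 1 (inflammatory), 2 (Pi16 and Dpp4) and 2 (Cilp). With no filter on low genes they were 7 in smooth muscle-like and 58 in endothelial-like cells, and 29, 4, 18 (chondrocyte markers), 32, 1, 29 and 75 in the states. Rgs5-positive cells gave 1, 5 and 4 with the stricter cell filter, the stricter gate and the highest-scoring class. With libraries left out the counts ran from 0 to 3 in smooth muscle-like and 0 to 4 in fibroblast-like cells (both highest without knockout 4), 1 to 2 in Rgs5-positive, 0 to 2 in Rgs5-negative, 0 to 1 in chondrocyte-marker, 0 to 3 in Fmod and Hhip and 0 to 3 in Pi16 and Dpp4 cells. Replicate number 4 exists only among the knockouts, so in a fit with the replicate block knockout 4 adds nothing to the genotype effect. The replicate block gave 3 genes in smooth muscle-like and 9 in fibroblast-like cells and 0 members. Under it, Eln in smooth muscle-like cells had an SE of 0.20, smaller than without it. Same-numbered libraries correlated at 0.167, 0.176 and 0.0373 in smooth muscle-like and 0.155, -0.0194 and 0.215 in fibroblast-like cells. Libraries of different numbers correlated at -0.170 to 0.112 and at -0.265 to 0.206 in these classes. Whether the numbers mark libraries handled together was not tested. Numbers were taken from the library names; the title of flox control 2 also calls it replicate 1, so the block rests on that choice. The causes were not tested. The chondrocyte-marker genotype effect could not be fitted under the stricter cell filter. Endothelial sums, from 53 cells in the smallest libraries, limit the precision there.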
